A study of Mus musculus with 6 samples.

Results

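The genes described here are 8 mouse genes that prepare long-chain fatty acids for use and carry them into mitochondria: the long-chain acyl-CoA synthetases Acsl1, Acsl3, Acsl4, Acsl5 and Acsl6, and the carnitine palmitoyltransferases Cpt1a, Cpt1c and Cpt2. They were chosen by name, with earlier results of these data known. Each matched 1 row of a table of 54532 genes, and all 8 were among the 15543 genes with enough counts to be tested. The RNA-seq libraries, 6 in all, come in pairs, numbered 1 and 5 in the table, from naive T cells, interleukin-17-producing Th17 cells and regulatory T cells (Treg). Every library is labelled as wild type, untreated and of thymus origin, while strain, age, the sorting or culture of the cells and their stimulation are unstated in the sources used here. Differences between types therefore include any difference in how the cells were obtained. No label ties the 2 libraries of a type to different animals. The p-values measure the spread within these pairs only, which may be technical.

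A fatty acid cannot be oxidised, stored or built into membranes until an acyl-CoA synthetase joins it to coenzyme A. For oxidation, Cpt1 on the outer mitochondrial membrane then swaps coenzyme A for carnitine, the carrier Slc25a20 moves the acylcarnitine inward, and Cpt2 on the inner membrane restores the acyl-CoA. Malonyl-CoA, the building block of fatty acid synthesis, inhibits Cpt1, so the step is a control point between synthesis and oxidation. Treg cells made in culture have been described as drawing on fatty acid oxidation and Th17 cells on glycolysis and fatty acid synthesis, although deletion of Cpt1a in mouse T cells left Treg formation largely intact.

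The libraries held 16458939 to 17901331 counts each. Levels are CPM values (counts divided by library size, on the usual CPM scale) with library sizes scaled by TMM (trimmed mean of M values), and levels of different genes are compared as CPM per kilobase (kb) of the gene length in the table. Genes were tested with edgeR's quasi-likelihood F-test and called at a Benjamini-Hochberg adjusted p under 0.05. Lineage genes fitted the labels: Foxp3 stood at 1008 ± 0.0335 CPM (SD, n = 2) in Treg cells against 14.3 ± 1.11 in naive cells, and Il17f at 2203 ± 4.68 CPM in Th17 cells against 0.263 ± 0.176 in naive cells. The 8 thymocyte markers, which mark developing cells of the thymus, summed to between 294 and 344 CPM (naive), 88.2 and 140 CPM (Th17) and 93.02 and 115 CPM (Treg). Themis alone made up 228 ± 21.0 CPM of this sum in naive, 94.9 ± 29.9 in Th17 and 62.8 ± 7.44 in Treg cells. Of the thymocyte markers, Rag1, Rag2 and Ptcra were at 0 counts in naive libraries. In Th17 libraries Rag1 had 6 and 0 counts and the others 0, and in Treg libraries Rag1 had 42 and 41 counts, Rag2 4 and 1 and Ptcra 0 and 2. Dntt had 127 and 168 counts (naive), 32 and 148 counts (Th17) and 4 and 4 counts (Treg). Of 6 tested thymocyte markers, 2 rose and 4 fell in Treg against naive cells, and their part in the results was not tested. In bulk RNA, fewer cells expressing a gene and less RNA per cell cannot be told apart.

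Against naive cells, 4 of the 8 genes (Acsl1, Acsl3, Acsl4 and Acsl6) rose in both Th17 and Treg cells by edgeR's test. Acsl6 was abundant in Treg cells and Cpt1c was highest in Th17 cells, while Acsl5 did not pass in any comparison. In the edgeR fit of Th17 against naive cells 5 of 8 genes rose and 0 fell, where 57.7% of all tested genes were called, 29.3% higher and 28.4% lower. In Treg against naive cells 6 of 8 rose and 0 fell, beside 43.4% of all tested genes called, 23.6% higher and 19.9% lower. In Treg against Th17 cells 4 of 8 were higher and 1 lower, beside 38.4% called, 19% higher and 19.4% lower. The counts of 0 were also 0 at an unadjusted p under 0.05 and with DESeq2 and limma-voom. With a change of at least 2-fold also required, 4, 6 and 3 of the 8 genes passed, against 39.3%, 26.8% and 23.7% of all tested genes. The first 2 comparisons share the naive libraries, so they are not independent. The median log2 fold change of the 8 genes was 1.22, 1.70 and 0.46 in these comparisons, beside -0.03, -0.00 and 0.02 over all tested genes. The first count depends on scaling: with libraries scaled by total count, which moves the median log2 fold change of all genes by 0.23 (Th17) and 0.18 (Treg) over naive cells, all 8 genes were called higher in Th17 cells. With that scaling 62.6% instead of 50.8% of all calls in Th17 and 67.0% instead of 54.3% in Treg cells were higher.

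**Figure D1:**
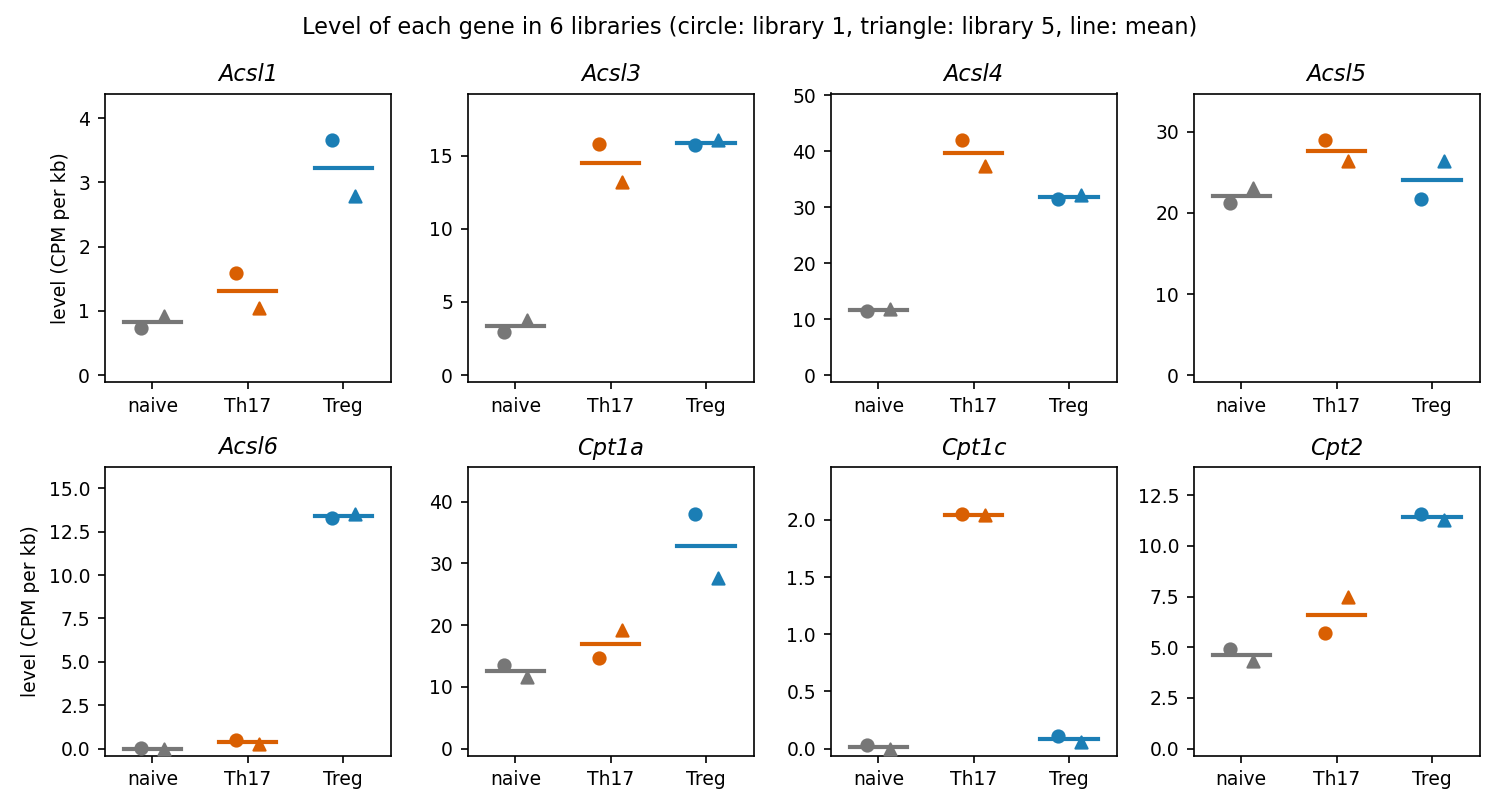
Level of each gene in CPM per kb in the 6 libraries, with circles for library 1, triangles for library 5 and lines for the mean of each type. Each panel has its own axis: Acsl6 stands apart in Treg libraries at 13.3 and 13.5 CPM per kb, and Cpt1c in Th17 libraries at 2.05 and 2.04.

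Acsl6 encodes the synthetase known for activating docosahexaenoic acid in brain, and was the member that differed most between types. It had 2 and 0 counts (naive), 89 and 51 counts (Th17) and 2306 and 2459 counts (Treg). These counts correspond to 132 and 134 CPM in Treg cells and 4.76 and 2.74 CPM in Th17 cells. The 3 types did not overlap, with naive libraries near 0 and the Treg libraries close to each other. Because naive libraries held 2 counts in all, the Treg to naive ratio is given with an exact 95% binomial counting interval, 1993-fold (551 to 16460), and the Th17 to naive ratio likewise, 56.2-fold (15.3 to 469). Both passed edgeR's test (adjusted p = 2.5e-10 and 1.4e-06). Treg cells exceeded Th17 cells by a log2 fold change of 5.15 ± 0.26 (standard error, SE; adjusted p = 2.4e-09), which is 35.4-fold.

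The gene lies on chromosome 11 (54303798 to 54364756, plus strand, mm10), and GENCODE release M21 lists 15 transcripts for it. Counts per gene do not tell which of its starts were used. RefSeq (GRCm38.p6) gives 3 promoter windows, each of 250 bases before and 50 from a start, and they differ in base composition: the first holds 5 CpG dinucleotides, the second 36 and the third 1, beside a median of 7 over 32851 such windows. The first 2 windows are printed because they belong to the starts that are nearest to the table's gene start, and capitals mark matches on either strand to the GC box GGGCGG and the CCAAT box (CCAAT).
Acsl6, first start, chr11:54303574-54303873, plus strand: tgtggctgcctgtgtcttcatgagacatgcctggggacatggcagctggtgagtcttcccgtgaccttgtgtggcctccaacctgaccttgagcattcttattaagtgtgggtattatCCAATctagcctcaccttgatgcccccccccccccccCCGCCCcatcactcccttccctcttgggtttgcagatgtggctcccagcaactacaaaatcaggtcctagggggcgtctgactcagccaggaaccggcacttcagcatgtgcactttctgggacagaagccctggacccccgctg
Acsl6, second start, chr11:54303954-54304253, plus strand: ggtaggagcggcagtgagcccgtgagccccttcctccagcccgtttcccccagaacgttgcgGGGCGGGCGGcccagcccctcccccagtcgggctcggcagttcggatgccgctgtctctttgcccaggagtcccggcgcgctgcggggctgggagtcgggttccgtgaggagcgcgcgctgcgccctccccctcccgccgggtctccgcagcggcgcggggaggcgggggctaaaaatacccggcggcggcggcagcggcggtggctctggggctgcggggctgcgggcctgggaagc
The GC box is in 35.7% and the CCAAT box in 37.4% of all windows. None of the 3 Acsl6 windows holds the E-box CACGTG (7.15% of all windows), the STAT site TTCNNNGAA (8.3%), the forkhead site TGTTTAC (3.65%), the Ets site CCGGAAG (8.86%) or the DR1 element, a direct repeat of AGGTCA spaced by 1 base (0.0396%). An antisense gene, Gm12224, overlaps Acsl6 and had 45 and 42 counts in Treg libraries, 0 and 1 in Th17 and 0 in naive libraries. Whether counting used strand is unstated in the sources used here, so reads of the pair may not be separable. They share 75 of the 10270 words of 50 bases in Acsl6 transcripts, and the antisense counts are small beside those of Acsl6.

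Acsl6 is known from erythroid cells and neurons of mammals, so markers of those cells were set beside it. The 10 erythroid markers summed to 3.45 and 3.74 CPM in naive, 1.07 to 26.2 CPM in Th17 and 4.002 to 10.9 CPM in Treg libraries. The haemoglobin gene Hba-a1 had 240 and 0 counts in Th17 libraries 1 and 5 and 1 and 92 in Treg libraries 1 and 5. Acsl6 had 89 and 51 counts in the same Th17 libraries and 2306 and 2459 in the same Treg libraries. The 8 neural markers summed to 2.19 to 3.18 CPM (naive), 3.16 to 4.13 CPM (Th17) and 5.15 to 5.78 CPM (Treg). In Treg against naive cells 1 of 6 tested erythroid markers and 1 of 3 tested neural markers rose by edgeR. The erythropoietin receptor gene Epor averaged 0.336 ± 0.111 CPM in naive and 1.24 ± 0.594 in Treg cells (adjusted p = 0.0419), and the neuronal tubulin gene Tubb3 averaged 0.968 ± 0.000571 and 4.31 ± 0.539 CPM (adjusted p = 0.00318). The erythroid marker Slc4a1 and the neural marker Aqp4 were at 0 in both Treg libraries. The part of such cells in the Acsl6 result was not tested.

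Acsl1, best known for fatty acid activation in fat, liver and heart, rose stepwise over the types. Its levels were 7.68 and 9.60 CPM (naive), 16.6 and 10.9 CPM (Th17) and 38.3 and 29.2 CPM (Treg). No library of a type overlapped those of another. Treg cells exceeded naive cells by 1.97 ± 0.26 in log2 fold change (adjusted p = 2.4e-05) and Th17 cells by 1.29 ± 0.25 (adjusted p = 7.5e-04), both by edgeR's test. The difference of Th17 from naive cells was smaller (0.67 ± 0.26, adjusted p = 0.0357). That call ended without naive library 1 (adjusted p = 0.183), without Th17 library 1 (0.355), with limma-voom (0.0714) and with only these types in the fit (0.0569), over a range of 0.00568 to 0.355 among alternatives. In the authors' deposited table it had adjusted p = 0.0819. Without Th17 library 1 the log2 fold change was 0.35. Acsl1 is also expressed in myeloid and dendritic cells. The 10 markers of those cells summed to 27.3 to 32.6 CPM (naive), 2.51 to 2.52 CPM (Th17) and 1.54 to 3.71 CPM (Treg). By edgeR, 6 of 8 tested markers fell and 0 rose in Th17 against naive cells, and 8 fell in Treg against naive cells. The marker Cd14 had 9 and 2 counts (naive), 17 and 14 counts (Th17) and 0 counts (Treg). The part of such cells in the Acsl1 result was not tested. Gm45244, on the opposite strand, overlaps Acsl1, shares 990 of its 10846 words of 50 bases and had at most 3 counts in a library. With the strand setting unstated, the Acsl1 counts carry that uncertainty.

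Acsl3 and Acsl4 were higher in Th17 and Treg cells alike. Acsl3, which resides on the endoplasmic reticulum and on lipid droplets, stood at 12.9 and 16.5 CPM (naive), 68.8 and 57.5 CPM (Th17) and 68.4 and 69.8 CPM (Treg). It rose by a log2 fold change of 2.10 ± 0.19 in Th17 (adjusted p = 2.8e-07) and 2.23 ± 0.19 in Treg cells (adjusted p = 2.7e-07). Treg and Th17 libraries overlapped, and their difference was 0.13 ± 0.17 (approximate 95% interval -0.24 to 0.50, adjusted p = 0.596). Acsl4, which prefers arachidonic acid and supplies the polyunsaturated lipids that are oxidised in ferroptosis, stood at 62.1 and 64.4 CPM (naive), 227 and 202 CPM (Th17) and 170 and 174 CPM (Treg). The increase was 1.76 ± 0.16 in Th17 (adjusted p = 2.7e-07) and 1.44 ± 0.15 in Treg cells (adjusted p = 3.5e-06). Its order was Th17, Treg, naive with no overlap of libraries, but the Treg to Th17 difference did not pass (-0.32 ± 0.15, interval -0.64 to 0.00, adjusted p = 0.109).

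The Acsl3 gene (chromosome 1, 78657825 to 78707743, plus strand) contains Utp14b, a gene on the same strand, with which it shares 158 of its 4401 words of 50 bases. Utp14b had 173 and 88 counts (naive), 660 and 704 counts (Th17) and 829 and 837 counts (Treg), and its log2 fold changes of 2.08 ± 0.24 in Th17 (adjusted p = 5.0e-06) and 2.43 ± 0.25 in Treg (adjusted p = 2.0e-06) were close to those of Acsl3. How counting split reads over the shared exons is unstated in the sources used here, so both values carry that uncertainty. Acsl4 (chromosome X, 142317993 to 142390535, minus strand) overlapped no other gene of the table and shared 0 of its 5539 words with another gene.

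Acsl5, an enzyme of the mitochondrial outer membrane and endoplasmic reticulum, differed little between types. It measured 103 and 112 CPM (naive), 141 and 128 CPM (Th17) and 106 and 128 CPM (Treg). The ranges of the Treg and naive libraries overlapped. Its log2 fold changes were 0.32 ± 0.16 in Th17 against naive (interval -0.01 to 0.66, adjusted p = 0.093), 0.12 ± 0.16 in Treg against naive (-0.22 to 0.46, adjusted p = 0.564) and -0.20 ± 0.16 in Treg against Th17 cells (-0.54 to 0.14, adjusted p = 0.345). The intervals thus leave room for an increase of up to 0.66 on the log2 scale in Th17 cells, and with scaling by total count that difference passed (0.56, adjusted p = 0.00797, range 0.00797 to 0.329 among alternatives). Zdhhc6, on the opposite strand, overlaps Acsl5, shares 226 of its 4854 words and had 559 to 1004 counts per library.

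**Figure D2:**
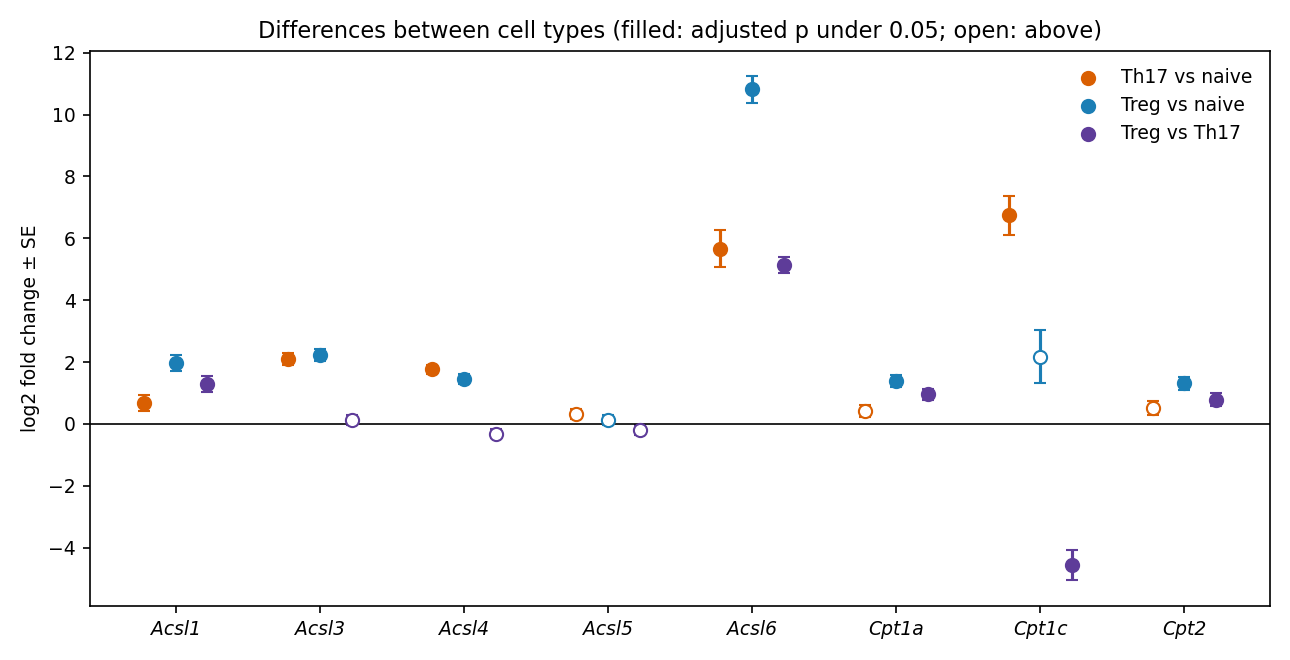
Log2 fold change of each gene in the 3 comparisons, with SE as error bars, filled points for adjusted p under 0.05 and open points for the rest. Acsl6 reaches 10.81 in Treg against naive cells and Cpt1c lies at -4.57 in Treg against Th17 cells.

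The mix of synthetases differed between types. Summed per length, the 5 Acsl genes reached 36.4 and 39.6 CPM per kb in naive, 88.7 and 78.4 in Th17 and 85.9 and 90.8 in Treg libraries. Th17 and Treg sums overlapped, and both were above naive. Acsl5 made up 58.2% ± 0.110 (SD, n = 2) of the sum in naive cells, 33.1% ± 0.768 in Th17 and 27.2% ± 2.60 in Treg cells. Acsl4 took 30.8% ± 1.08, 47.5% ± 0.364 and 36.0% ± 0.910 in the same order, and Acsl3 took 8.85% ± 1.01, 17.3% ± 0.672 and 18.0% ± 0.435. The largest share was thus that of Acsl5 in naive cells and that of Acsl4 in Th17 and Treg cells. Acsl6 supplied 15.2% ± 0.416 of the sum in Treg cells and 0.447% ± 0.133 in Th17 cells, and Acsl1 at most 3.66% ± 0.841, in Treg cells. With 2 against 2 libraries a two-sided exact permutation test cannot go below p = 0.333, so the shares are given as descriptions. They depend on the gene lengths of the table, from 4357 bases for Acsl3 to 10483 for Acsl1.

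**Figure D3:**
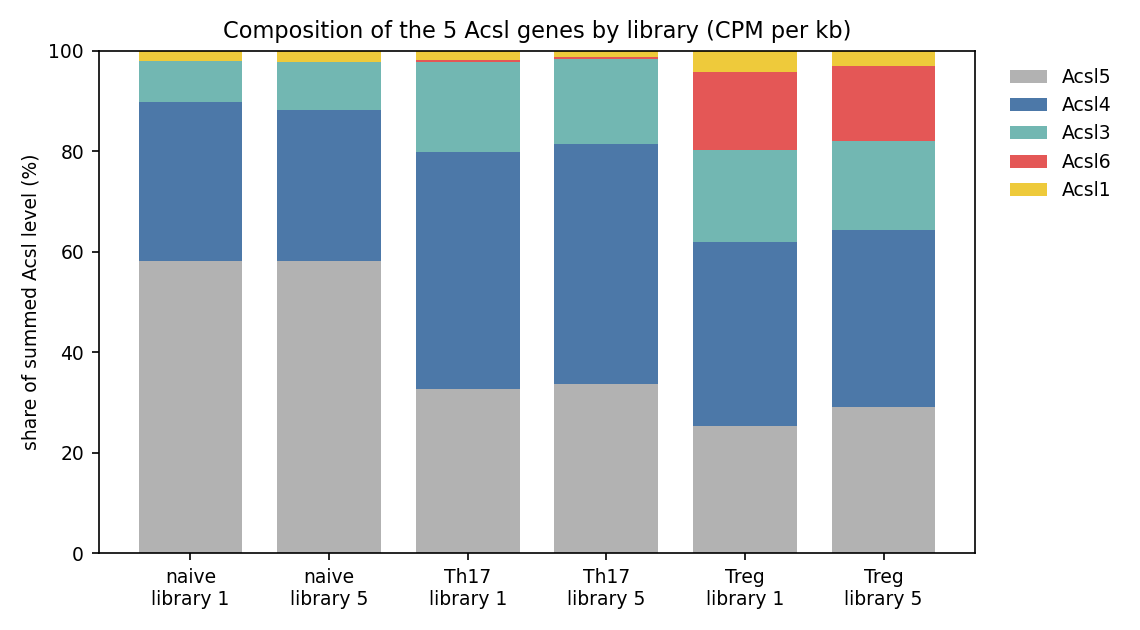
Share of each Acsl gene in the summed Acsl level (CPM per kb, in %) in each of the 6 libraries. The Acsl5 band shrinks from 58.2% in naive cells to 27.2% in Treg cells, and the Acsl6 band is visible in Treg libraries at 15.5% and 14.9%.

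Cpt1a encodes the Cpt1 form of liver and most other tissues and was highest in Treg cells. Naive libraries held 58.5 and 49.8 CPM, Th17 libraries 62.8 and 82.9 and Treg libraries 163 and 119. The types did not overlap, but the Treg libraries differed from each other more than those of naive cells. Cpt1a was higher in Treg than naive cells by 1.38 ± 0.19 in log2 fold change (adjusted p = 4.6e-05) and higher than in Th17 cells by 0.95 ± 0.19 (adjusted p = 0.00109), or 2.61-fold and 1.94-fold. In Th17 against naive cells it did not pass (0.43 ± 0.19, interval 0.02 to 0.84, adjusted p = 0.0689). That difference passed with scaling by total count (adjusted p = 0.0103), without a filter on low counts (0.0296) and without Th17 library 1 (0.0304), over a range of 0.0103 to 0.442. In the authors' deposited table Cpt1a had adjusted p = 0.0663 in Th17 and 4.3e-10 in Treg cells against naive cells.

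Cpt2, the partner enzyme inside the mitochondrion, followed the same order. Its levels were 11.7 and 10.3 CPM (naive), 13.7 and 17.9 CPM (Th17) and 27.7 and 26.9 CPM (Treg). Libraries of different types did not overlap. The rise in Treg over naive cells was 1.31 ± 0.22 on the log2 scale (adjusted p = 2.3e-04), and Treg exceeded Th17 cells by 0.79 ± 0.21 (adjusted p = 0.00875). The latter call ended without Th17 library 1 (adjusted p = 0.116) or Treg library 1 (0.0516), with a range of 0.00514 to 0.116 among alternatives. Th17 against naive cells gave 0.52 ± 0.22 (interval 0.05 to 0.99, adjusted p = 0.0547) and did not pass. It passed with scaling by total count (adjusted p = 0.00952), with DESeq2 size factors (0.0423) and without Th17 library 1 (0.0362), over a range of 0.00952 to 0.342. Per length, Cpt1a exceeded Cpt2 by 2.77 and 2.69 times in naive, 2.55 and 2.57 times in Th17 and 3.28 and 2.45 times in Treg libraries, so the ratio in Treg libraries spanned that of the other types.

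Cpt1c, the Cpt1 form known from neurons, which sits on the endoplasmic reticulum and has little transferase activity, was highest in Th17 cells, where Cpt1a and Cpt2 were highest in Treg cells. It had 3 and 0 counts (naive), 215 and 213 counts (Th17) and 11 and 6 counts (Treg). Th17 libraries were nearly equal at 11.5 and 11.4 CPM and far above the others. The Th17 to naive ratio was 115-fold (95% counting interval 38.9 to 558; edgeR adjusted p = 4.8e-07). In Treg cells the gene was lower than in Th17 cells by -4.57 ± 0.49 in log2 fold change (adjusted p = 4.2e-06), or 23.8-fold. Treg against naive cells gave a ratio of 4.74-fold (95% counting interval 1.37 to 25.2; adjusted p = 0.0542) and did not pass. It passed with scaling by total count (adjusted p = 0.0358), without a filter on low counts (0.0217), without naive library 1 (0.0149) and without Treg library 5 (0.0395), over a range of 0.0149 to 0.247. Even in Th17 cells Cpt1c reached only 0.140 and 0.106 times the level of Cpt1a per length. The muscle form Cpt1b, no member of the set, had 5 to 13 counts in every library.

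The promoters of Cpt1c and Cpt1a are printed because these related genes were highest in different types. Capitals again mark the GC box and the CCAAT box.
Cpt1c, chr7:44974802-44975101, minus strand: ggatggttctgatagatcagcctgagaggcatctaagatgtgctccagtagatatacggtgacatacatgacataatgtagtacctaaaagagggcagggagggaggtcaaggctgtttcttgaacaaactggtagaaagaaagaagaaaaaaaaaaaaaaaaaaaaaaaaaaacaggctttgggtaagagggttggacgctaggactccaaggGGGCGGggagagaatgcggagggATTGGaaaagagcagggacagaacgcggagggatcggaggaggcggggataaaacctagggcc
Cpt1a, chr19:3323051-3323350, plus strand: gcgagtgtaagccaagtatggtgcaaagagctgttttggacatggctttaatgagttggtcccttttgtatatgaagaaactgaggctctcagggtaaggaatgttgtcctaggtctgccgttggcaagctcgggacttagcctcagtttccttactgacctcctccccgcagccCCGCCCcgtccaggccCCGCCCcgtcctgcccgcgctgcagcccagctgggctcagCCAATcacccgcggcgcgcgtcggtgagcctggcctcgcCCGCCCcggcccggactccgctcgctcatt
The Cpt1c window has a GC content of 47.3% and 8 CpG dinucleotides, against 62.3% and 22 in Cpt1a (medians over all windows 52.7% and 7). It holds 1 GC box and 1 CCAAT box, and the Cpt1a window holds 3 and 1. Neither holds the E-box, STAT, forkhead, Ets or DR1 letters named above. Among the 11 windows of the 8 genes, Cpt2 alone held an Ets site (2 matches) and a STAT site (1 match). Cpt1c (chromosome 7, 44959372 to 44974851, minus strand) is overlapped by the antisense gene 6530437J22Rik, which had at most 5 counts in a library.

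The neural markers set beside Cpt1c summed to 2.19 to 3.18 CPM (naive), 3.16 to 4.13 CPM (Th17) and 5.15 to 5.78 CPM (Treg). Olig2 and Syt1 were at 0 counts in Th17 libraries. Among these markers Aqp4 had 0 counts in naive and Treg libraries and 17 and 21 in Th17 libraries (adjusted p = 0.00103 for Th17 against naive cells), and Gfap had 1 and 0 counts (naive), 7 and 7 counts (Th17) and 0 and 6 counts (Treg). The part of neural cells in the Cpt1c result was not tested. The 12 cell cycle genes of the fixed list, which mark dividing cells, summed to 298 to 391 CPM (naive), 4149 to 4343 CPM (Th17) and 1041 to 1626 CPM (Treg), and 12 of 12 rose in Th17 and 11 of 12 in Treg against naive cells. Acsl1, Acsl3, Acsl4, Acsl6 and Cpt1c were called higher in Th17 than naive cells by edgeR's test. Acsl3 averaged 63.1 ± 7.98 CPM in Th17 and 69.1 ± 1.04 CPM in Treg cells. For Acsl4 these averages were 215 ± 17.2 and 172 ± 2.40 CPM. The part of cell division in these results was not tested.

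By type, 4 of the 8 genes (Acsl1, Acsl6, Cpt1a and Cpt2) were higher in Treg than in both other types, a pattern met by 7.08% of all tested genes. Cpt1c was the member higher in Th17 than in both other types (15.5% of all tested genes), and no member was highest in naive cells by these tests (15.3%). Per length, the order of levels also differed. In naive cells Acsl5 came first at 22.1 ± 1.29 CPM per kb, followed by Cpt1a (12.6 ± 1.42) and Acsl4 (11.7 ± 0.293), which overlapped each other. Cpt2 (4.61 ± 0.429), Acsl3 (3.38 ± 0.585) and Acsl1 (0.824 ± 0.130) came next, and Cpt1c and Acsl6 were near 0. In Th17 cells Acsl4 led at 39.7 ± 3.19, then Acsl5 at 27.7 ± 1.79, with Cpt1a (16.9 ± 3.30) and Acsl3 (14.5 ± 1.83) overlapping below them. Further down stood Cpt2 (6.61 ± 1.25), Cpt1c (2.05 ± 0.00830), Acsl1 (1.31 ± 0.387) and Acsl6 (0.378 ± 0.144). In Treg cells Cpt1a (32.8 ± 7.33) and Acsl4 (31.8 ± 0.444) led and overlapped, followed by Acsl5 (24.1 ± 3.24), Acsl3 (15.9 ± 0.238), Acsl6 (13.4 ± 0.159), Cpt2 (11.4 ± 0.218), Acsl1 (3.22 ± 0.616) and Cpt1c (0.0853 ± 0.0381). Acsl6 thus moved from the bottom of the order in naive and Th17 cells to a place between Acsl3 and Cpt2 in Treg cells.

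For each member the genes with the most similar pattern were sought among 7766 genes above the median expression, by the root mean square (RMS) difference of centred log2 CPM over the 6 libraries. The closest to Acsl6 were Ndrg4 (RMS 0.710) and Socs2 (0.838), neither of them close. Ndrg4 averaged 0.101 CPM (naive), 11.1 CPM (Th17) and 212 CPM (Treg). Adarb1 (0.473) and Stx11 (0.500) were nearest to Cpt1c. The remaining members had closer counterparts, which were Mcm6 (0.0980) and Epop (0.115) for Acsl3, Mcm7 (0.0664) and Slc25a39 (0.0692) for Acsl4, and Cep44 (0.0469) and Vdac2 (0.0511) for Acsl5. Ahcyl2 (0.184) and Xxylt1 (0.211) were nearest to Acsl1, Dnmbp (0.135) and Bcas3 (0.139) to Cpt1a, and Bcas3 (0.0732) and Pnpla2 (0.0757) to Cpt2.

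The genes around the members moved in both directions against naive cells. Over all tested genes, 29.3% rose and 28.4% fell in Th17, and 23.6% rose and 19.9% fell in Treg against naive cells. In Treg against Th17 cells 19% were higher and 19.4% lower, and the list counts that follow stand beside these shares. Of 20 tested genes of mitochondrial beta-oxidation, the pathway that Cpt1 and Cpt2 feed, 6 rose and 6 fell in Th17 against naive cells. In Treg against naive cells 4 of these genes rose and 2 fell. Their median log2 fold changes were 0.01 and 0.04, beside -0.03 and -0.00 over all tested genes. Acadl and Acads, acyl-CoA dehydrogenases for long and short chains, rose in Treg cells (1.06 ± 0.19 and 1.11 ± 0.17, adjusted p = 3.8e-04 and 9.3e-05). The thiolase genes Acat1 and Hadhb fell in Treg cells (-0.64 ± 0.16 and -0.49 ± 0.16, adjusted p = 0.00564 and 0.0215). In Th17 cells Acadl (1.31 ± 0.19, adjusted p = 3.7e-05), Acad9 (1.18 ± 0.17, adjusted p = 3.8e-05) and Acads (0.94 ± 0.17, adjusted p = 2.4e-04) rose. The isomerase gene Eci1 (-1.66 ± 0.24, adjusted p = 3.3e-05), Acat1 (-1.20 ± 0.16, adjusted p = 2.3e-05) and Hadhb (-0.64 ± 0.16, adjusted p = 0.00327) fell in Th17 cells. Acads did not differ between Treg and Th17 cells by edgeR's test (0.17 ± 0.16, adjusted p = 0.44). Hadha and Acadvl, which start the oxidation of long chains together with Hadhb, did not pass in any comparison: Hadha averaged 130 ± 9.11, 130 ± 7.46 and 156 ± 3.79 CPM in naive, Th17 and Treg cells, and Acadvl 56.0 ± 3.97, 63.7 ± 1.15 and 66.4 ± 8.38 CPM. Treg against Th17 cells had 6 genes higher and 4 lower, with Eci1 (1.79 ± 0.24, adjusted p = 3.2e-05) and the thiolase gene Acaa2 (1.09 ± 0.18, adjusted p = 2.6e-04) at the top and Eci2 (-0.997 ± 0.17, adjusted p = 3.5e-04) and Acad9 (-0.94 ± 0.17, adjusted p = 4.7e-04) at the bottom. The count in Treg against naive cells fell from 6 to 3 without naive library 1 or Treg library 1, and that in Treg against Th17 cells from 10 to 4 without Th17 library 1 and to 5 without Treg library 5.

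Of 15 tested peroxisomal oxidation genes, 5 rose and 4 fell in Th17 and 4 rose and 2 fell in Treg against naive cells, while 3 were higher and 3 lower in Treg than Th17 cells. Scp2 fell in both (-1.70 ± 0.20 in Th17, adjusted p = 4.0e-06, and -0.94 ± 0.19 in Treg, adjusted p = 0.00113), as did Phyh (-0.87 ± 0.24, adjusted p = 0.00603, and -1.54 ± 0.24, adjusted p = 1.5e-04). No naive library had a count of the thiolase gene Acaa1b, which in Th17 cells was at least 18.8-fold higher than a floor set at 3 counts per naive library. Without Treg library 1 the Treg to naive count fell from 6 to 3.

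Acaca, which makes malonyl-CoA in the cytosol, averaged 27.7 ± 6.45 CPM (naive), 109 ± 15.9 CPM (Th17) and 89.3 ± 13.6 CPM (Treg), and rose in both (1.97 ± 0.20, adjusted p = 9.3e-07, and 1.69 ± 0.20, adjusted p = 7.8e-06). Acacb, its form at the mitochondrial surface, was low at 2.96 ± 0.471, 2.01 ± 0.422 and 1.03 ± 0.321 CPM and fell in Treg cells (-1.52 ± 0.48, adjusted p = 0.0183). Mlycd, which degrades malonyl-CoA, averaged 25.5 ± 2.03, 9.19 ± 0.668 and 27.2 ± 0.746 CPM. It fell in Th17 cells (-1.47 ± 0.20, adjusted p = 2.3e-05) and was higher in Treg than Th17 cells (1.56 ± 0.20, adjusted p = 2.6e-05), while Treg against naive cells gave 0.09 (adjusted p = 0.741). Over the whole list of 20 tested control genes and regulators, 5 rose and 9 fell in Th17 and 4 rose and 4 fell in Treg against naive cells, and 6 were higher and 3 lower in Treg than Th17 cells. The coactivator gene Ppargc1b was lower in Th17 than in naive cells (-1.84 ± 0.25, adjusted p = 2.4e-05) and higher in Treg than Th17 cells (1.37 ± 0.25, adjusted p = 6.0e-04). The nuclear receptor gene Ppara, a main activator of Cpt1a in mouse liver, had at most 2 counts in any library. Ppard rose in Treg over naive cells (0.84 ± 0.16, adjusted p = 9.1e-04), with a similar level in Th17 cells. It averaged 31.4 ± 1.18, 57.3 ± 1.40 and 56.0 ± 5.98 CPM in naive, Th17 and Treg cells. Fewer of these genes passed in Treg against naive cells without naive library 5 (5) or Treg library 1 (4) than the 8 with all libraries, and in Treg against Th17 cells without Th17 library 1 or Treg library 1 (5 each) than the 9 with all.

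**Figure D4:**
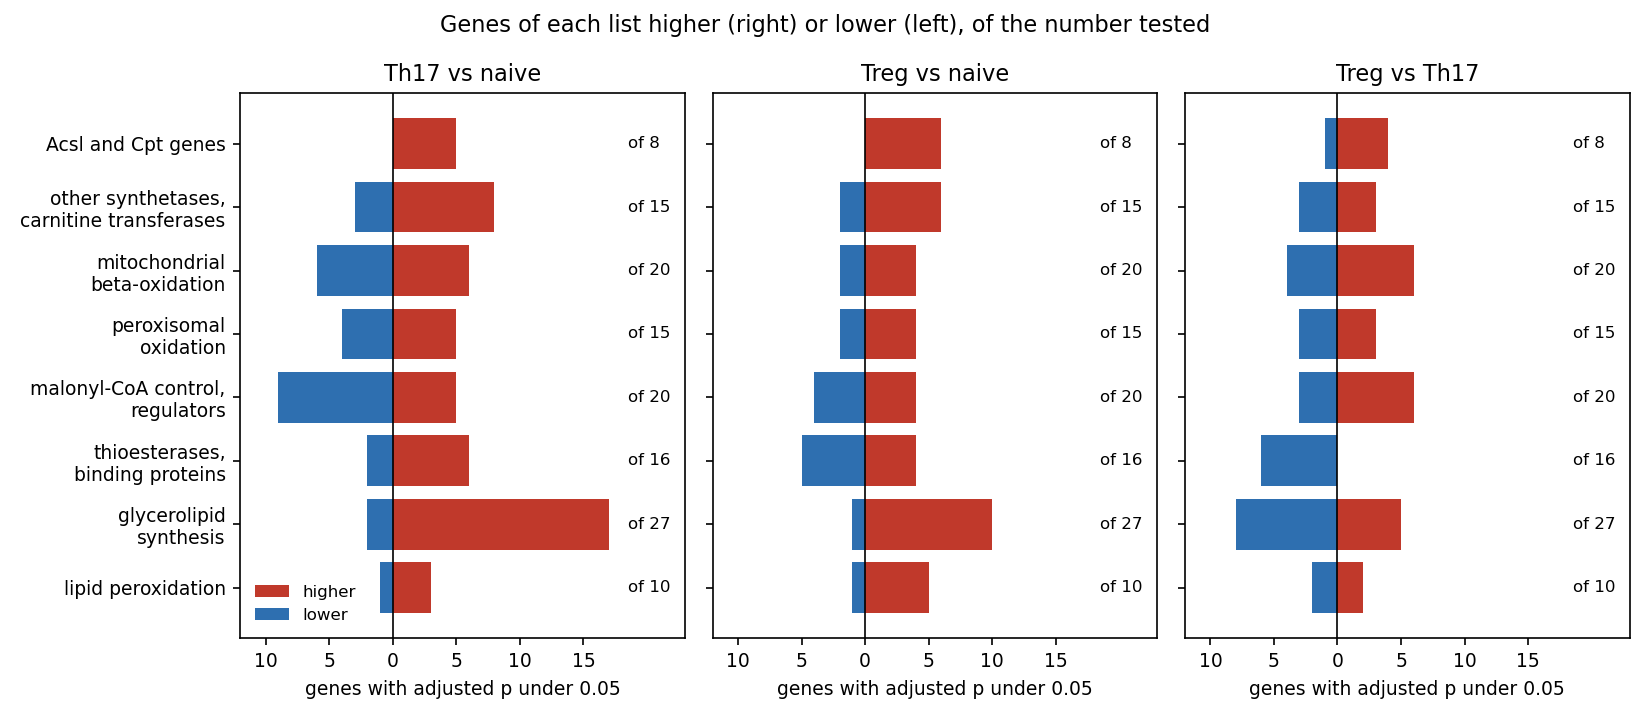
Number of genes per list with adjusted p under 0.05, higher to the right and lower to the left, in the 3 comparisons, with the number tested at the right edge of each panel. The 8 Acsl and Cpt genes have 0 lower against naive cells, and mitochondrial beta-oxidation has 6 higher and 6 lower of 20 in Th17 cells. Over all tested genes 29.3% were higher and 28.4% lower in Th17 against naive cells.

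Of 15 tested genes for other enzymes that make acyl-CoA or acylcarnitine, 8 rose and 3 fell in Th17 and 6 rose and 2 fell in Treg against naive cells, with 3 higher and 3 lower in Treg than Th17 cells. Acsbg1, of the bubblegum family of long-chain synthetases, averaged 12.6 ± 0.571 CPM (naive), 36.3 ± 11.6 CPM (Th17) and 112 ± 3.35 CPM (Treg), and so had the order of Acsl1. It rose in Treg over naive (3.15 ± 0.22, adjusted p = 3.9e-08) and was higher than in Th17 cells (1.63 ± 0.20, adjusted p = 1.7e-05). The fatty acid transport gene Slc27a1 rose in Th17 (1.91 ± 0.20, adjusted p = 1.8e-06) and Treg cells (2.59 ± 0.20, adjusted p = 1.6e-07). Slc27a1 was also higher in Treg than Th17 cells (0.68 ± 0.19, adjusted p = 0.0102). Aacs, which activates acetoacetate, rose in Th17 (2.33 ± 0.17, adjusted p = 3.0e-08) and Treg cells (1.93 ± 0.17, adjusted p = 3.7e-07). The acetyl-CoA synthetase genes fell: Acss1 averaged 74.1 ± 3.42, 5.25 ± 2.21 and 45.9 ± 4.97 CPM in naive, Th17 and Treg cells, with falls of -3.82 ± 0.25 (adjusted p = 1.1e-08) and -0.69 ± 0.22 (adjusted p = 0.0183), and Acss2 fell in Th17 (-2.32 ± 0.18, adjusted p = 5.9e-08) and Treg cells (-2.05 ± 0.18, adjusted p = 3.5e-07). The carrier Slc25a20, which works between Cpt1a and Cpt2, rose slightly in Th17 (0.51, adjusted p = 0.043) and Treg cells (0.66, adjusted p = 0.0172). Crat, which transfers acetyl groups to carnitine, averaged 6.17 ± 1.59, 27.2 ± 0.183 and 14.7 ± 4.13 CPM and was highest in Th17 cells (adjusted p = 0.0106 against Treg cells). Without Treg library 1 the number called in Treg against naive cells fell from 8 to 5.

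Of 27 tested genes of glycerolipid synthesis, remodelling and storage, 17 rose and 2 fell in Th17 against naive cells. In Treg against naive cells 10 rose and 1 fell. Over all tested genes 29.3% rose and 28.4% fell in Th17, and 23.6% rose and 19.9% fell in Treg cells. The list's median log2 fold changes were 0.83 (Th17) and 0.60 (Treg). In Treg against Th17 cells 5 were higher and 8 lower (median -0.26, beside 0.02 over all tested genes). Mgll, a lipase that releases fatty acids from monoacylglycerol, averaged 45.0 ± 8.67 CPM in Th17 cells against 0.472 ± 0.211 in naive and 0.802 ± 0.407 in Treg cells (log2 fold change 6.57 ± 0.38, adjusted p = 3.1e-09, against naive cells), and the droplet coat gene Plin2 rose in Th17 cells by 3.24 ± 0.29 (adjusted p = 2.8e-07). Plin2 also rose in Treg over naive cells (1.57 ± 0.28, adjusted p = 0.000396), but was lower in Treg than Th17 cells (-1.67 ± 0.26, adjusted p = 0.000155). Lipe, another lipase gene, rose over naive cells in Th17 (1.83 ± 0.18, adjusted p = 9.1e-07) and Treg cells (1.97 ± 0.18, adjusted p = 7.7e-07). Its difference between Treg and Th17 cells did not pass (0.14 ± 0.17, adjusted p = 0.551). Lpin2 was higher in Treg than Th17 cells (2.30 ± 0.24, adjusted p = 3.3e-06). Lpcat3, which inserts the polyunsaturated acyl-CoA made by Acsl4 into phospholipids, averaged 44.5 ± 1.58, 79.0 ± 8.16 and 53.8 ± 4.33 CPM and rose in Th17 cells (0.83, adjusted p = 4.9e-04).

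Among thioesterases and acyl-binding proteins, 6 of 16 tested genes rose and 2 fell in Th17 against naive cells. In Treg against naive cells 4 rose and 5 fell. By edgeR 0 were higher and 6 lower in Treg than Th17 cells, beside 19% and 19.4% of all tested genes. The 0 stayed at 0 at an unadjusted p under 0.05 and with DESeq2 and limma-voom. The thioesterase gene Acot7 averaged 11.7 ± 2.83, 179 ± 30.0 and 72.6 ± 7.15 CPM in naive, Th17 and Treg cells and rose in both (3.93 ± 0.21, adjusted p = 1.3e-09, and 2.63 ± 0.20, adjusted p = 1.2e-07). Fabp5, a fatty acid binding protein gene, averaged 5.71 ± 0.228, 81.4 ± 7.22 and 19.4 ± 10.4 CPM and was lower in Treg than Th17 cells (-2.07 ± 0.28, adjusted p = 3.8e-05). Cd36, a fatty acid receptor, had 10 and 11 counts in naive libraries and 2 to 3 in the others. The count in Treg against naive cells fell from 9 to 5 without naive library 1 or Treg library 5.

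Of 10 tested genes of lipid peroxidation and ferroptosis, the death pathway in which Acsl4 acts, 3 rose and 1 fell in Th17 and 5 rose and 1 fell in Treg against naive cells, and 2 were higher and 2 lower in Treg than Th17 cells. The protective peroxidase gene Gpx4 did not pass in any comparison, at 123 ± 32.7, 130 ± 13.7 and 119 ± 14.0 CPM. The cystine carrier gene Slc7a11, without a count in either naive library, was at least 14.3-fold higher (Th17) and at least 5.68-fold higher (Treg) than the same floor, with levels of 2.87 ± 0.409 and 1.14 ± 0.396 CPM. Aifm2, which protects lipids from peroxidation independently of Gpx4, had 1 count in naive libraries and was 75.5-fold (95% counting interval 13.2 to 3012) higher in Th17 and 32.6-fold (5.52 to 1321) higher in Treg cells. Fth1, the ferritin heavy chain gene, fell in Treg cells (-1.08 ± 0.19, adjusted p = 3.3e-04), and the transferrin receptor gene Tfrc was lower in Treg than Th17 cells (-1.32 ± 0.18, adjusted p = 4.8e-05).

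Markers of other cell types were also measured. B cell markers summed to 490 to 514 CPM (naive), 25.0 to 34.8 CPM (Th17) and 501 to 634 CPM (Treg), of which the immunoglobulin gene Ighm alone made up 443 ± 10.5 CPM in naive and 562 ± 92.6 in Treg cells, while 7 of the 8 were lower in Treg than naive cells and Ms4a1 was at 0 in Treg libraries. Thymic epithelium markers summed to 69.0 to 82.3 CPM in Treg libraries and 3.10 to 10.5 in naive libraries, nearly all of it Epcam (74.5 ± 8.38 CPM in Treg cells), with Foxn1 and Aire at 0 in Treg libraries. Epcam was thus higher in Treg than naive cells, as were Acsl6, Cpt1a and Cpt2 and, by edgeR's test, 23.6% of all tested genes. In Th17 libraries Epcam had 1 and 0 counts, against 25 and 73 in naive libraries, while Acsl6 had 89 and 51 counts in Th17 libraries. The part of Epcam-expressing cells in the results was not tested.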

How the data were processed

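Per the labels' protocols, extraction used an RNeasy Micro kit and library preparation a SMARTER mRNA-seq kit. Per the submitters' processing notes, cutadapt, STAR, DESeq2 and the build mm10 were used, and versions, the counting tool, its strand setting and the annotation release are not given there. The authors deposited whole-number counts per gene, not normalized, for 54532 genes. Per the file headers the table also holds log2 fold changes and p-values of the authors' own comparisons with naive cells, printed only as theirs. Its FPKM values, 6 further columns, were left out. Columns carry the numbers 1 and 5 and titles 1 and 2, so columns were matched to types only.

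Counts were tested with edgeR 4.0.16 in R 4.3.3 (quasi-likelihood F-test after filterByExpr at a minimum count of 10 and TMM scaling, 1 fit over 6 libraries with 3 residual degrees of freedom), with Benjamini-Hochberg adjustment over 15543 genes. The test was checked on simulated data. DESeq2 1.42.0, limma 3.58.1 (voom), other scalings and filters, and leaving out each library were alternatives. Libraries of a type correlated at r = 0.982 to 0.986 (log2 CPM, across genes) and differed by more than sampling noise. A count of 3 corresponds to 0.160 to 0.207 CPM. Intervals of count ratios and floors cover counting error only. Promoter windows and their motif matches come from RefSeq (GRCm38.p6), in which all 8 genes matched, and words shared between transcripts from GENCODE M21.

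The 8 genes and all lists were chosen with earlier results of these data known. Named genes were the 8 members and 11 fixed partners (such as Slc25a20, Acaca and Gpx4). Others were among the 2 called genes with the largest rise and the 2 with the largest fall in each pathway list and comparison. Utp14b, Zdhhc6, Gm45244 and antisense genes were named for overlapping a member, and single genes of the marker lists after their values were seen. A gene that the rule names is not reported here.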

Additional observations from a re-analysis of the deposited data

How the results depend on the processing

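Of 335 recomputed log2 fold changes of the members, 317 kept their direction and side of the threshold, 11 newly passed, 6 no longer passed and 1 reversed. With total count scaling all 8 members were called in Th17 against naive cells, with log2 fold changes of 0.56 (Acsl5), 0.66 (Cpt1a) and 0.75 (Cpt2), and Cpt1c in Treg against naive cells gave 2.34. The levels in CPM per kb that moved most with that scaling were 16.3 (Acsl3, Treg), 10.6 and 32.8 (Acsl4, naive and Treg), 20.04 and 29.6 (Acsl5, naive and Th17), 13.8 (Acsl6, Treg), 2.19 (Cpt1c, Th17) and 11.8 (Cpt2, Treg). Without a filter on low counts Cpt1a gave 0.46 (Th17 against naive) and Cpt1c 2.20 (Treg against naive). Acsl1 in Th17 against naive cells gave 0.65 with limma-voom and 0.68 with only those types in the fit, and Cpt2 0.55 with DESeq2 size factors.

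With a change of at least 2-fold required, 3 members passed in Treg against Th17 cells, and 4167 and 3680 genes in all in Treg against naive and Th17 cells. The lists of mitochondrial oxidation, peroxisomal oxidation and malonyl-CoA control then held 7, 2 and 6 called genes in Th17 against naive cells, 2, 2 and 3 in Treg against naive cells and 2, 2 and 4 in Treg against Th17 cells. Other synthetases, thioesterases and glycerolipid genes held 5, 5 and 7 in Treg against naive cells, and glycerolipid genes 7 in Treg against Th17 cells.

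Leaving out each library in turn, the members called ranged from 4 to 6 (Th17 against naive), 6 to 7 (Treg against naive) and 4 to 5 (Treg against Th17), with the lone library of a type assumed to vary like the others. Log2 fold changes in Th17 against naive cells ranged from 0.35 to 0.96 for Acsl1, 0.23 to 0.63 for Cpt1a and 0.32 to 0.72 for Cpt2. In Treg against naive cells they ranged from 1.28 to 6.08 for Cpt1c and from -0.0124 to 0.27 for Acsl5, which reversed without Treg library 5. Cpt2 in Treg against Th17 cells ranged from 0.61 to 1.00. With naive library 1 left out the other has 0 counts of Acsl6 and Cpt1c, so their fitted changes against naive cells (9.04 and 10.65 in Th17) are no bound. In Treg against naive cells the genes called ranged from 5 to 8 for other synthetases, 3 to 6 for mitochondrial and 3 to 6 for peroxisomal oxidation, 4 to 7 for malonyl-CoA control and 5 to 7 for thioesterases. In Treg against Th17 cells they ranged from 4 to 10 for mitochondrial oxidation and 5 to 9 for malonyl-CoA control. Beyond the smaller number of samples, the cause of these shifts was not tested.

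Libraries sharing a number deviated together with r of 0.00466 to 0.126. With so few libraries this cannot settle whether the numbers pair them, and no label says what the numbers mean. The replicate block left 5, 6 and 5 members called. Low counts limit Acsl6 and Cpt1c in naive cells.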
